A study of Homo sapiens with 2 samples.

Results

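The genes described here are 10 that neurons and neuroendocrine cells are known for, measured in derivatives of C33-A, an established cervical carcinoma cell line that its depositors describe as epithelial and adherent. They are MAP2, TUBB3, GAP43, NRCAM, NCAM1, CHGA, CHGB, SCG2, UCHL1 and GRIA2, out of 19775 genes named on the array. All probe sets that the platform annotation pairs with exactly 1 of these symbols were taken, which gave 24 of 54675 probe sets. The genes were chosen with the differences between these same arrays known, so their differences are given as a description, with no test.

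The CA9 line carries the full-length human cDNA of CA9, the gene of a membrane-bound carbonic anhydrase, in the plasmid pcDNA3.0. The vector line carries the plasmid without the cDNA. Both are stable transfectants of C33-A, cultured in RPMI with 10% serum and harvested for RNA on day 4. Each line has 1 array, and their cells are called CA9 cells and vector cells here. Whether a line is 1 clone or a pool is not said in the labels, and the level of CA9 itself was not analysed here.

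Neurons build their axons and dendrites on microtubules stabilised by proteins such as MAP2, extend them with growth cone proteins such as GAP43, and hold them together with immunoglobulin-type adhesion molecules such as NCAM1 and NRCAM. Neuroendocrine cells store hormones in dense-core granules whose matrix is made of granins, the family of CHGA, CHGB and SCG2. Outside the nervous system many of these genes are kept low by REST, a repressor that binds a DNA element called RE1, and carcinomas with neuroendocrine features express some of them.

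In the CA9 line MAP2 was 2.36-fold higher than in the vector line. GAP43 was 1.95-fold higher in the probe set that represents it, just short of 2-fold, while another probe set was at least 3.99-fold higher and the last was too dim on both arrays to be used. NRCAM was at least 1.90-fold lower. In RNA from a whole culture, a change in the number of cells that express a gene and a change in its RNA per cell cannot be told apart. CHGB lay lower and GRIA2 and NCAM1 lay higher, all short of 2-fold. UCHL1, TUBB3 and SCG2, whose brightest probe sets were bright on both arrays, differed between the lines by at most 0.20 on the log2 scale. CHGA had the same value on both arrays.

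Values are intensities, and differences are on the log2 scale with the vector line subtracted from the CA9 line. As a floor served the median intensity of every probe set except the controls, 40.8 with both arrays pooled. It is a cut on brightness and not a detection call. Genes with at least 1 array above this floor count as measurable, and each was represented by the probe set whose mean log2 intensity was highest. A measurable gene was called if the values of its lines, also those below the floor, were at least 2-fold apart. Folds with 1 line at or below the floor are lower bounds, computed against the floor and written "at least". The spread between cultures is not known, since each line has 1 array, and the number of arrays limits the precision. The measure of disagreement used here is the SD of the log2 differences between probe sets of a gene, which was 0.31 over 6186 genes. Such probe sets read the same RNA on the same array and are no replicates. Their SD cannot show a shift between the arrays as a whole. Spike-in controls, given further below, differed by medians of 0.41 and -0.17.

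All 10 genes were measurable and 8 of them lay above the floor on both arrays. By the representing probe set 1 of the 10 was at least 2-fold higher, MAP2, and 1 was at least 2-fold lower in its deposited values, NRCAM. Since the CA9 value of NRCAM lay below the floor, its bound is only 1.90-fold. Among all 13823 measurable genes the share at least 2-fold higher was 0.651% and the share at least 2-fold lower was 0.694%. Since the genes were chosen from this contrast, nothing is read from that count. The median difference of the 10 genes was 0.18, beside -0.03 over all measurable genes. In 6 of them the difference was above 0, in 3 below 0 and in 1 exactly 0. For 4 of the genes the difference was no larger than the SD between probe sets. NRCAM was measurable through the vector line alone, and so was CHGB.

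Of the 24 probe sets, 12 lay above the floor on both arrays, 3 on 1 array and 9 on neither. The 9 dim ones differed by at most 0.37 on the log2 scale. Of the 15 others, 2 passed 2-fold upwards, beside 0.751% of all probe sets above the floor, and 1 passed 2-fold downwards, beside 0.758%.

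**Figure D1:**
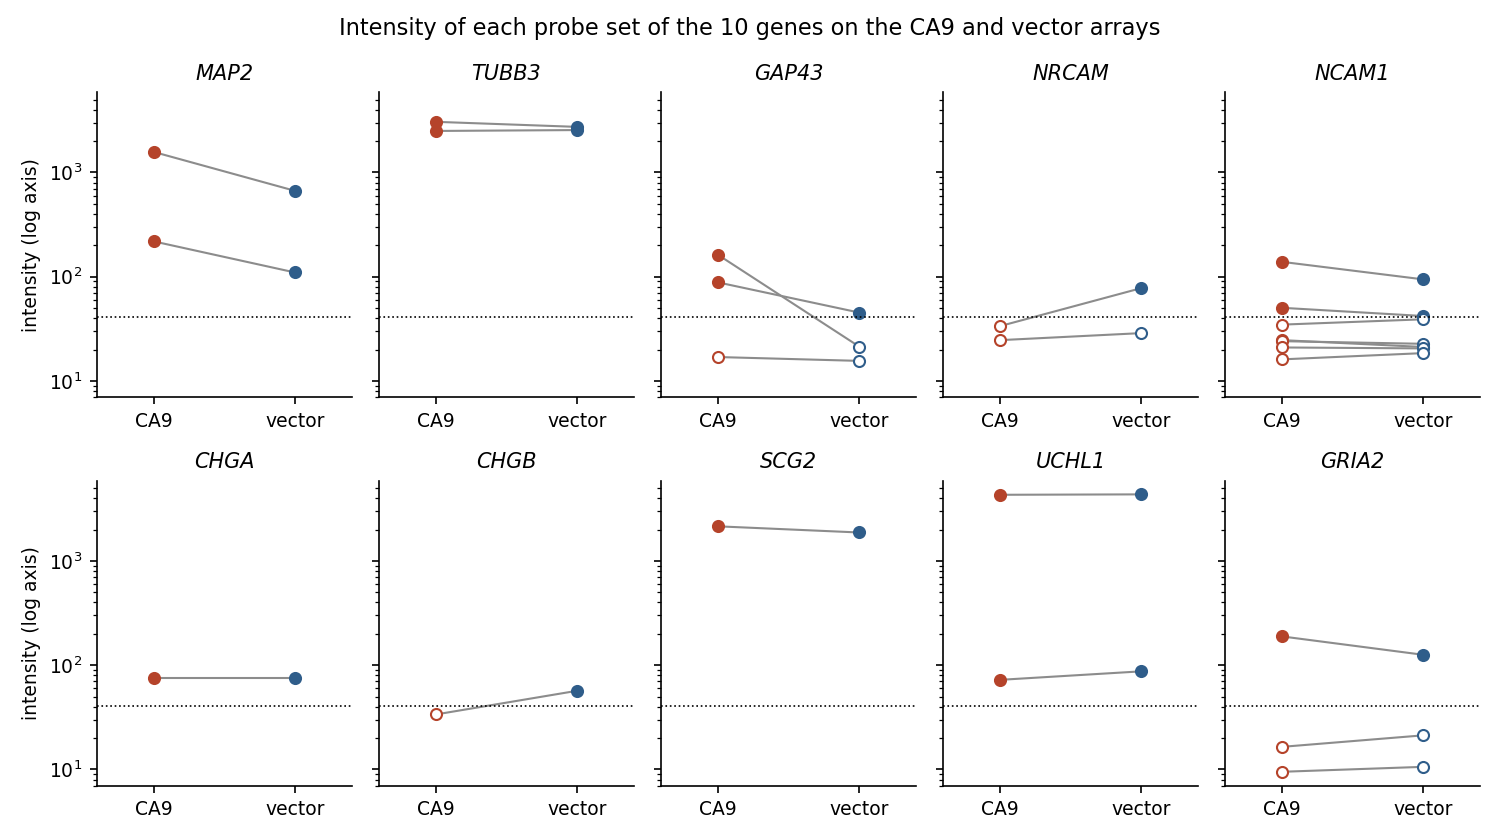
Intensity of every probe set of the 10 genes on the CA9 array (left in each panel) and the vector array (right), on a log axis; lines join the values of 1 probe set, the dotted line is the floor of 40.8 and open circles lie at or below it. Both MAP2 probe sets and the brighter GAP43 probe sets are higher on the CA9 array, NRCAM and CHGB are higher on the vector array, and TUBB3, SCG2 and the brighter UCHL1 probe set are nearly level.

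The microtubule genes were MAP2 and TUBB3. MAP2 lies on chromosome 2 and encodes a protein that stabilises microtubules in dendrites. Probe set 225540_at gave 1573 in CA9 cells and 666 in vector cells. Probe set 210015_s_at gave 218 in CA9 cells and 110 in vector cells. Both probe sets were thus higher in the CA9 line with both arrays above the floor, by log2 differences of 1.24 and 0.99, and MAP2 was the only one of the 10 genes whose probe sets were all this far apart. The mean over its probe sets was 1.12.

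TUBB3, on chromosome 16, encodes the class III beta-tubulin that is used as a marker of neurons. It gave 3058 in CA9 cells and 2735 in vector cells in probe set 213476_x_at. Probe set 202154_x_at gave 2499 in CA9 cells and 2549 in vector cells. The log2 differences were 0.16 and -0.03, which lie on either side of 0 and within the SD between probe sets. Both probe sets are of a kind (_x_at) that can bind related transcripts, so other beta-tubulins may contribute to these intensities.

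GAP43 on chromosome 3 encodes a growth cone protein that is anchored in the membrane of extending axons and binds calmodulin. It had the widest range among its probe sets. Probe set 204471_at gave 163 in CA9 cells and 21.4 in vector cells. Probe set 216963_s_at gave 88.3 in CA9 cells and 45.3 in vector cells. Probe set 216967_at gave 17.0 in CA9 cells and 15.6 in vector cells. All 3 were higher in the CA9 line, but the last lay below the floor on both arrays.

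The log2 differences of the GAP43 probe sets were 2.93, 0.96 and 0.12 in that order. Since the vector line lay below the floor in 204471_at, that probe set is given as at least 3.99-fold higher. The representing probe set was 216963_s_at, whose fold of 1.95 lies just short of the call. Which probe set stands for GAP43 therefore sets whether it is called: it was called with the average of its probe sets (1.34), with the average of those above the floor (1.95 on the log2 scale) and with the probe set that is brightest on either array.

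**Figure D2:**
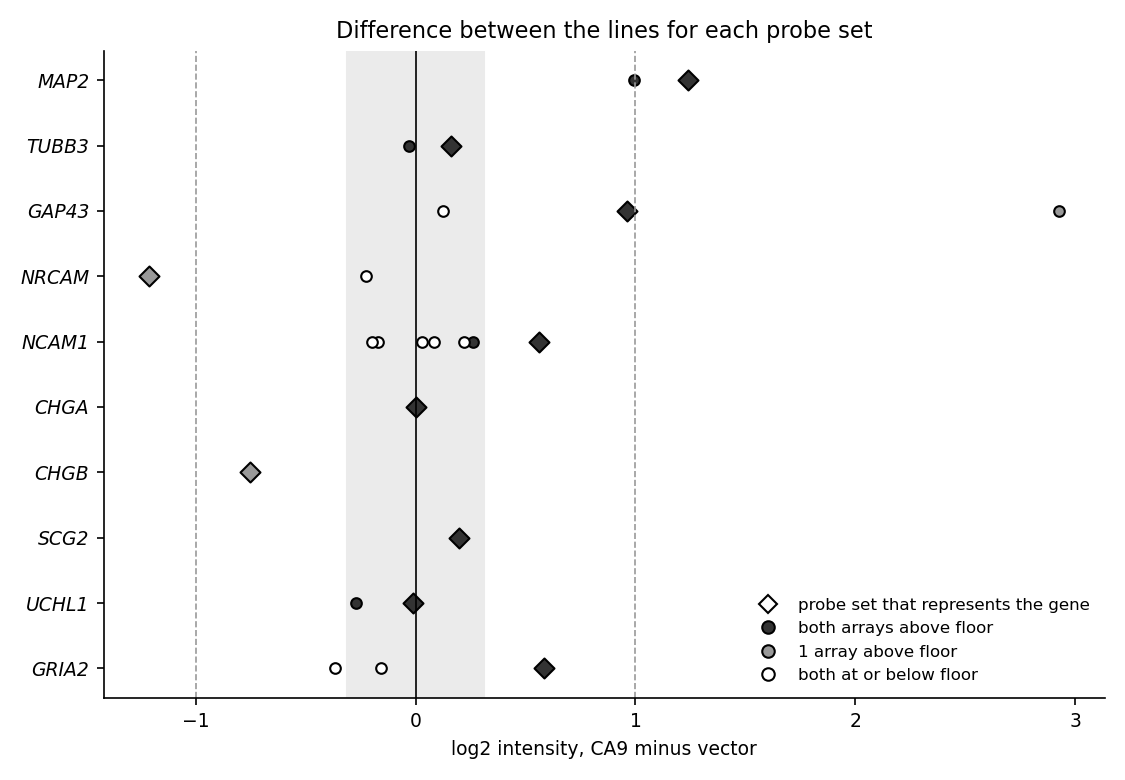
Log2 difference of each probe set, CA9 minus vector, by gene; diamonds mark the probe set that represents the gene, dark symbols have both arrays above the floor, grey symbols 1 array and open circles neither. The grey band is 0 plus and minus the SD between probe sets (0.31) and the dashed lines are 2-fold. A GAP43 probe set at 2.93 lies farthest above 0 and an NRCAM probe set at -1.21 farthest below it, each with only 1 array above the floor, while a MAP2 probe set at 1.24 has both.

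The stretches of 250 bases before a transcription start of GAP43 and MAP2, the genes with a probe set at least 2-fold higher, are shown for their sequence context, from RefSeq on build GRCh38.p14 and on the plus strand. GAP43 has a single start in the RefSeq table used (chr3:115623260-115623509), and MAP2 has 3, all inside the gene as RefSeq bounds it, of which the first along the chromosome is shown (chr2:209579082-209579331). Which start is used in these cells was not measured. Capitals mark CCAAT on either strand and, in GAP43, GGACAG, the right block of the RE1 element.
GAP43: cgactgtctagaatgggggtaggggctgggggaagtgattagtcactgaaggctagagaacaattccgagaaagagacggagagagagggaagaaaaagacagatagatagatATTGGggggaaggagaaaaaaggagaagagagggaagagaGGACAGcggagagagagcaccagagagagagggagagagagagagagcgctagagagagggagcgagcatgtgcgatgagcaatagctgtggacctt
MAP2: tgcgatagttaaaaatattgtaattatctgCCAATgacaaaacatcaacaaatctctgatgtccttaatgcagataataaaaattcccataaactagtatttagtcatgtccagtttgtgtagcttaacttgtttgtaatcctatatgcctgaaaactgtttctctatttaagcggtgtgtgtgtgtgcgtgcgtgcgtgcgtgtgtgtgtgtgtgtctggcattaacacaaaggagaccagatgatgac

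The bases a and g make up 78.4% of the GAP43 stretch, which holds long runs of gaga. The MAP2 stretch has a GC content of 37.6%, against 51.6% in that of GAP43, and carries a run of alternating g and t. The letters CCAAT were 137 bases before the GAP43 start, on the minus strand, and 220 bases before the MAP2 start. They occur in 34.6% of all 35116 promoter windows of the table, each of which runs from 250 bases before a start to 50 after it. GGACAG, 97 bases before the GAP43 start, occurs in 20.5% of them, and the left block of RE1 is not in that window.

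The adhesion genes were NRCAM and NCAM1. NRCAM, on chromosome 7, encodes an ankyrin-binding member of the L1 family that gathers sodium channels at nodes of Ranvier. Probe set 204105_s_at gave 33.5 in CA9 cells and 77.7 in vector cells. Probe set 216959_x_at gave 24.6 in CA9 cells and 28.8 in vector cells. Both were lower in the CA9 line, by log2 differences of -1.21 and -0.22. In the first the CA9 line lay below the floor, so NRCAM is given as at least 1.90-fold lower, and in the second both lines did.

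NRCAM was no longer called with the average of its probe sets, at -0.72, or with 16 added to each intensity, at -0.92. With the floor raised to the 75th percentile it was not measurable, and neither of its probe sets remained once those named _x_at and _s_at were left out. Its call thus rests on 1 probe set and on a CA9 value below the floor.

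NCAM1, on chromosome 11, encodes the neural cell adhesion molecule, which joins neurons by binding to copies of itself and is also a marker of neuroendocrine tumours. It had the most probe sets, 7, and 2 of them lay above the floor. Probe set 209968_s_at gave 139 in CA9 cells and 94.3 in vector cells, a log2 difference of 0.56. Probe set 229799_s_at gave 50.3 in CA9 cells and 42.0 in vector cells, a log2 difference of 0.26. The 5 others ran from 16.1 to 39.0 over both arrays and differed in both directions, so that the mean over all probe sets was 0.11. The brighter probe sets were thus higher in the CA9 line, short of 2-fold, and the dim ones did not share a direction.

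The granins were CHGA, CHGB and SCG2, and each had a single probe set. CHGA, on chromosome 14, encodes chromogranin A, the granule protein most used as a neuroendocrine marker. It gave 74.6 in CA9 cells and 74.6 in vector cells. The deposited values were exactly equal, as they were for 1425 of all probe sets, or 2.61%, and why values coincide is not given in the sources used here.

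CHGB, on chromosome 20, encodes chromogranin B. It gave 33.7 in CA9 cells, below the floor, and 56.8 in vector cells. Its log2 difference was -0.76, and against the floor it was at least 1.39-fold lower. SCG2 on chromosome 2 encodes secretogranin II, the precursor of the peptide secretoneurin. It gave 2148 in CA9 cells and 1874 in vector cells, a log2 difference of 0.20, which lies within the SD between probe sets. None of the granins passed 2-fold, and the value of CHGB in CA9 cells was below the floor.

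UCHL1, on chromosome 4, encodes a ubiquitin hydrolase that is abundant in neurons, where it is also known as PGP9.5. Probe set 201387_s_at gave 4309 in CA9 cells and 4349 in vector cells. Probe set 1555834_at gave 72.3 in CA9 cells and 87.3 in vector cells. Their log2 differences were -0.01 and -0.27, both within the SD between probe sets. The direction of UCHL1 is not settled, since it was above 0 after quantile normalization (0.01) and after removal of a trend with intensity (0.03).

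GRIA2, also on chromosome 4, encodes the subunit of AMPA-type glutamate receptors that makes them nearly impermeable to calcium once its transcript has been edited. Probe set 205358_at gave 189 in CA9 cells and 126 in vector cells, a log2 difference of 0.59. Probe set 236538_at gave 16.5 in CA9 cells and 21.3 in vector cells. Probe set 241172_at gave 9.50 in CA9 cells and 10.6 in vector cells. The dim probe sets lay on the other side of 0, at -0.37 and -0.16, and the mean over all 3 was 0.020.

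**Figure D3:**
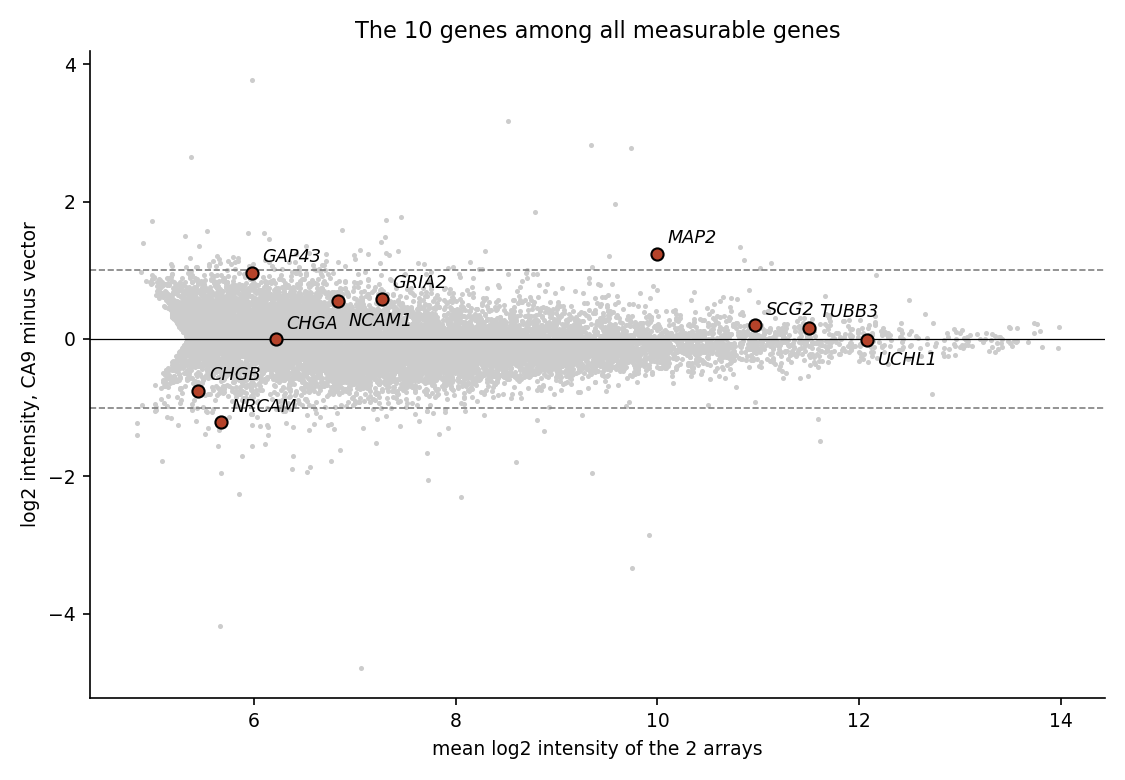
Log2 difference, CA9 minus vector, against the mean log2 intensity of the arrays for all measurable genes (grey) and the 10 genes (red), each by its representing probe set; dashed lines are 2-fold. MAP2 at 1.24 lies above the dashed line and NRCAM at -1.21 below it, GAP43 at 0.96 lies just inside, and UCHL1, TUBB3 and SCG2 lie near 0 at the bright end.

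Short elements in the promoter windows are shown because they are known binding sites of regulators of neuronal genes: RE1 for REST, TGACGTCA for the CREB family and TGACTCA for AP-1. Each was searched on both strands in the windows of the 7 genes found in the table, 14 windows in all. RE1 was written as its left block TTCAGCACC, 2 bases of any kind, its right block GGACAG, 2 more bases of any kind and CC. The GRIA2 site is given on the minus strand (chr4:157220388-157220408), the CHGA site on the plus strand (chr14:92923086-92923113) and the NRCAM sites on the minus strand (chr7:108243421-108243448), the strand of NRCAM itself. Capitals mark the blocks of RE1, TGACGTCA, and TGACTCA, which in NRCAM is read on the opposite strand as TGAGTCA.
GRIA2: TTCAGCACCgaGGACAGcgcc
CHGA: gcggcaccgcTGACGTCAtttccggggt
NRCAM: tacTGAGTCAaagaatTGACGTCAatat

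RE1 in this spelling was in 1 of the 3 windows of GRIA2, from 231 bases before the start, and in 5 of all 35116 windows, or 0.0142%. TGACGTCA was 54 bases before the CHGA start and 47 bases before 1 of the 3 NRCAM starts, and 1.85% of all windows hold it. TGACTCA was 60 bases before that same NRCAM start and 21 bases before 1 of the TUBB3 starts, and 4.95% of all windows hold it. The E-box CAGGTG was found in windows of GRIA2, NRCAM and CHGA, and in 20.6% of all windows. These are matches of letters, and binding was not measured.

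REST itself was on the array with 3 probe sets. Probe set 212920_at gave 141 in CA9 cells and 184 in vector cells. Probe set 204535_s_at gave 143 in CA9 cells and 163 in vector cells. Probe set 204536_s_at lay below the floor on both arrays, at 39.3 in CA9 cells and 39.7 in vector cells. All were lower in the CA9 line, by log2 differences of -0.38, -0.19 and -0.01, and none came near 2-fold. Of its partners, the corepressor RCOR1 differed by -0.04, and the histone deacetylases HDAC1 and HDAC2 by 0.18 and 0.03. A second probe set of HDAC2, above the floor on both arrays, differed by -0.43. The scaffold SIN3A gave 83.1 in CA9 cells and 132 in vector cells, a log2 difference of -0.67, with other probe sets above the floor at -0.52 and 0.00.

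Other genes of the same processes came from 11 lists, of which 4 hold markers of other cell types. Of 214 listed genes, 188 had a single-gene probe set and 125 were measurable. Past 2-fold upwards were 2 of these, NEFH and GPRIN1, and 0 went as far downwards, together 1.60% of them, beside 1.35% of all measurable genes.

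In the neuronal cytoskeleton list 23 of 29 genes were measurable and 1 was at least 2-fold higher, with a median of -0.04. NEFH, the heavy neurofilament subunit, was higher with 838 in CA9 cells and 233 in vector cells, a log2 difference of 1.85. The intermediate filament gene INA went the other way, with 1449 in CA9 cells and 2750 in vector cells, a log2 difference of -0.92, short of 2-fold. DPYSL2, a collapsin response mediator, had a difference of -0.63. MAPT, which encodes tau, the axonal counterpart of MAP2, gave 271 in CA9 cells and 257 in vector cells, a difference of 0.08. The 3 other MAPT probe sets above the floor ran from -0.50 to 0.39. MAP1B differed by -0.35, but its other probe sets above the floor lay at 0.11 and 0.21. The neuronal genes STMN2, DCX, NEFL and NEFM lay below the floor on both arrays. MAPT, MAP1B and these 4 were chosen for mention after their values were seen.

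In the list of growth cone and membrane partners of GAP43, 7 of 13 genes were measurable, 1 was at least 2-fold higher and the median was 0.05. GPRIN1, which takes part in neurite outgrowth, gave 173 in CA9 cells and 83.3 in vector cells, a log2 difference of 1.06, and its second probe set differed by 1.06 too. With equal medians on both arrays it was just short of 2-fold, at 0.995 on the log2 scale. PRKCA, a kinase of the protein kinase C family, which phosphorylates GAP43, differed by -0.70 and BASP1, a membrane protein like GAP43, by -0.34 with the CA9 line below the floor.

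Of 27 neural adhesion genes 15 were measurable and 0 were called, with a median of 0.29. NRP2, a semaphorin receptor, differed by 0.84, but its 2 other probe sets above the floor lay between -0.21 and -0.16. DLG1, a scaffold protein, differed by -0.74 and the neurexin gene NRXN2 by 0.68. L1CAM, of the same family as NRCAM, was chosen for mention after its value was seen and gave 86.5 in CA9 cells and 80.2 in vector cells.

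Of 30 genes of dense-core granules and regulated secretion 14 were measurable and 0 were called, with a median of 0.36. With no floor, over the 26 genes on the array, the median was 0.12. PCSK1N, an inhibitor of the prohormone convertase PCSK1, gave 222 in CA9 cells and 128 in vector cells, a difference of 0.80. VAMP2, a vesicle fusion protein, differed by 0.72 and PTPRN2, a granule membrane protein, by 0.48, with other probe sets above the floor from -0.42 to 0.55. The amidating enzyme PAM and the carboxypeptidase CPE went the other way, at -0.46 and -0.38, and were chosen for mention after their values were seen. Of the measurable genes of this list, 9 were above 0. SCG3, SCG5 and ENO2, which encode granule proteins and the neuronal enolase, lay below the floor on both arrays and were chosen for mention after their values were seen.

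The ubiquitin hydrolase list had 4 measurable genes of 9 and a median of -0.12, with UCHL3, the closest relative of UCHL1, at -0.48. There UBB was at -0.21 and USP14 at 0.18. The glutamate receptor list had 19 measurable genes of 31, none called, and a median of 0.07. There GRIA4 was at 0.48 with the vector line below the floor, GRIN3B at 0.44 and GRIN2D at -0.44. The list of transcription factors and repressors had 17 measurable genes of 29, none called, and a median of -0.04. The proneural factor NEUROG2 gave 50.4 in CA9 cells and 26.3 in vector cells, below the floor, and was at least 1.24-fold higher. PHOX2A, a factor of noradrenergic neurons, differed by 0.64. INSM1, a factor that drives the neuroendocrine programme, lay below the floor on both arrays, at 14.3 in CA9 cells and 15.8 in vector cells, and was likewise chosen after its values were seen.

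**Figure D4:**
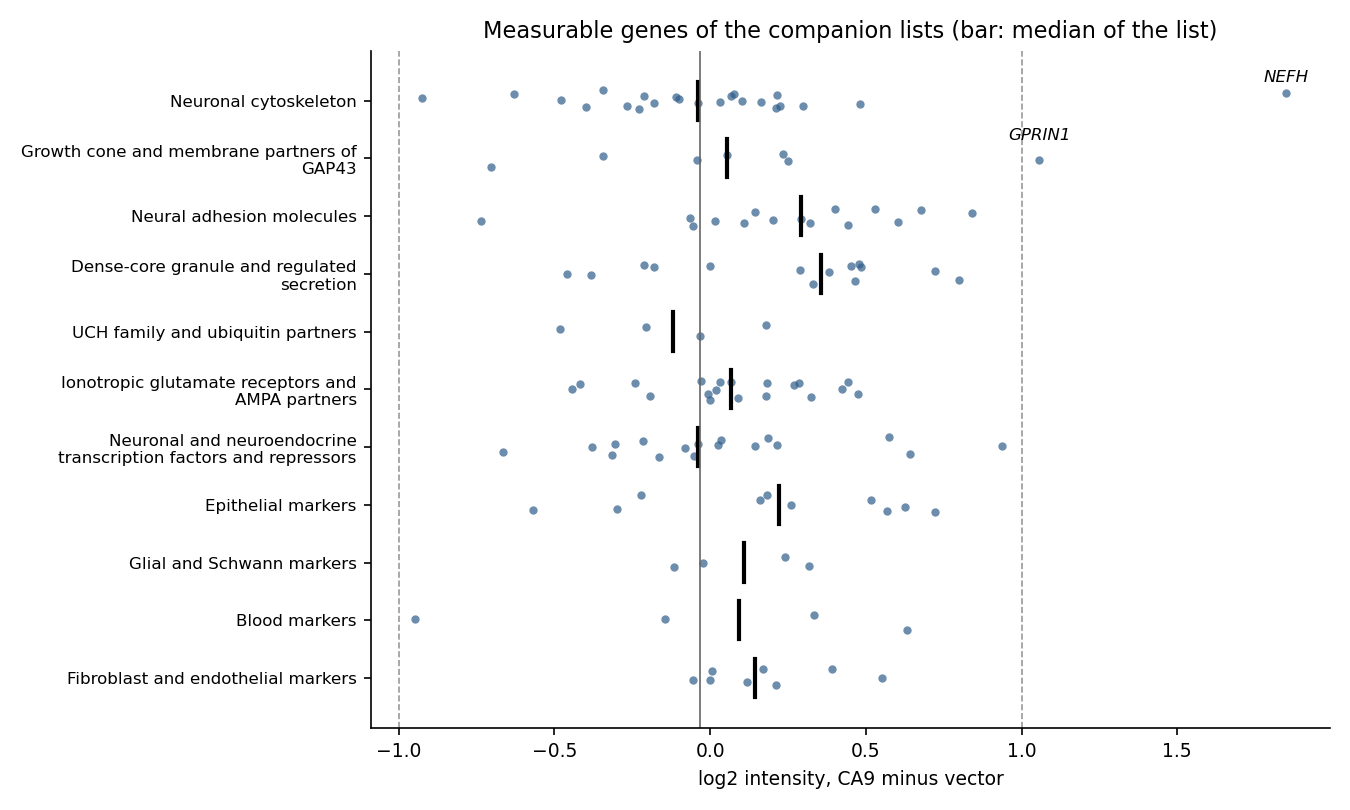
Log2 difference, CA9 minus vector, of the measurable genes of each list (points) with the median of the list (black bar); the grey line is the median of all measurable genes (-0.03) and the dashed lines are 2-fold. NEFH and GPRIN1 are the only points beyond the dashed lines, and the list medians lie between -0.12 and 0.36.

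The labelled epithelial character was set against 17 epithelial markers. Of the 14 on the array, 10 were measurable and 0 were called, with a median of 0.22. Summed over all 14, dim ones included, the intensity was 819 in CA9 cells and 720 in vector cells. The keratins KRT14 and KRT8 differed by 0.63 and 0.57, and KRT15 was at least 1.05-fold higher with the vector line below the floor. ELF3, an epithelial transcription factor, went the other way, at -0.57, and was chosen for mention after its value was seen. The defining epithelial genes EPCAM, CDH1, ESRP1 and GRHL2 lay below the floor on both arrays, so these 4 are dim in both lines. KRT7, the brightest of the list, gave 193 in CA9 cells and 172 in vector cells. KRT7 and these 4 were chosen for mention after their values were seen. Of the glial markers 4 of 8 on the array were measurable, with sums over all 8 of 379 in CA9 cells and 351 in vector cells. GFAP differed by 0.32, SOX10 by 0.24 and ALDH1L1 by -0.12, with another ALDH1L1 probe set above the floor at 0.27. OLIG1, OLIG2, S100B and AQP4 lay below the floor and were chosen for mention after their values were seen. Of the blood markers 4 of 5 were measurable, with sums over all 5 of 237 in CA9 cells and 251 in vector cells. Among them PTPRC was at least 1.42-fold lower. CD14 went the other way, with 57.1 in CA9 cells and 36.9 in vector cells, below the floor, and ITGAM differed by 0.33. Of the fibroblast and endothelial markers 8 of 12 were measurable, with sums over all 12 of 3321 in CA9 cells and 3021 in vector cells. Most of these sums came from COL3A1, with 2538 in CA9 cells and 2339 in vector cells, chosen for mention after its values were seen. That probe set differed by 0.12, and the 3 other COL3A1 probe sets above the floor ran from -0.36 to 0.04. THY1 differed by 0.55, PECAM1 by 0.39 and COL1A2 by 0.21, and 6 of the measurable markers lay above 0. The part of the marker genes in the differences of the 10 genes was not tested.

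With 2 arrays a gene has a single difference, so likeness of pattern across samples could not be measured. Of the measurable listed genes, the one nearest to MAP2 in its difference was GPRIN1, at 1.06. For NRCAM no nearest gene is given, since its own difference is only a bound.

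The genes on either side along the chromosome were looked at in the order RefSeq gives, taking the 2 nearest measurable protein-coding genes on each side. Of these 40 neighbours 0 were called, beside 1.35% of all measurable genes, so so few genes say little. Their differences ran from -0.71 to 0.64 with a median of -0.16. The nearest measurable genes to MAP2 were PIKFYVE at -0.45 and RPE at -0.55, and farther out lay IDH1 at 0.22 and ERBB4 at 0.56. Those nearest to GAP43 were QTRT2 at -0.18 and UPK1B at -0.10. Farther out lay ZDHHC23 at -0.34 and B4GALT4 at 0.11. Those nearest to NRCAM were DLD at 0.05 and PNPLA8 at -0.29, and farther out lay CBLL1 at -0.20 and THAP5 at -0.61.

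Control probe sets differed little in RNA ends between the arrays. For ACTB the 3′ minus 5′ log2 signal was 0.67 in CA9 cells and 0.73 in vector cells. For GAPDH it was 0.06 in CA9 cells and 0.04 in vector cells. The hybridisation spike-ins were higher on the CA9 array by a median of 0.41, in 17 of 18 probe sets. The poly-A spike-ins lay the other way, with a median of -0.17 and 6 of 27 probe sets above 0. The part of either in the differences of the 10 genes was not tested.

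**Figure D5:**
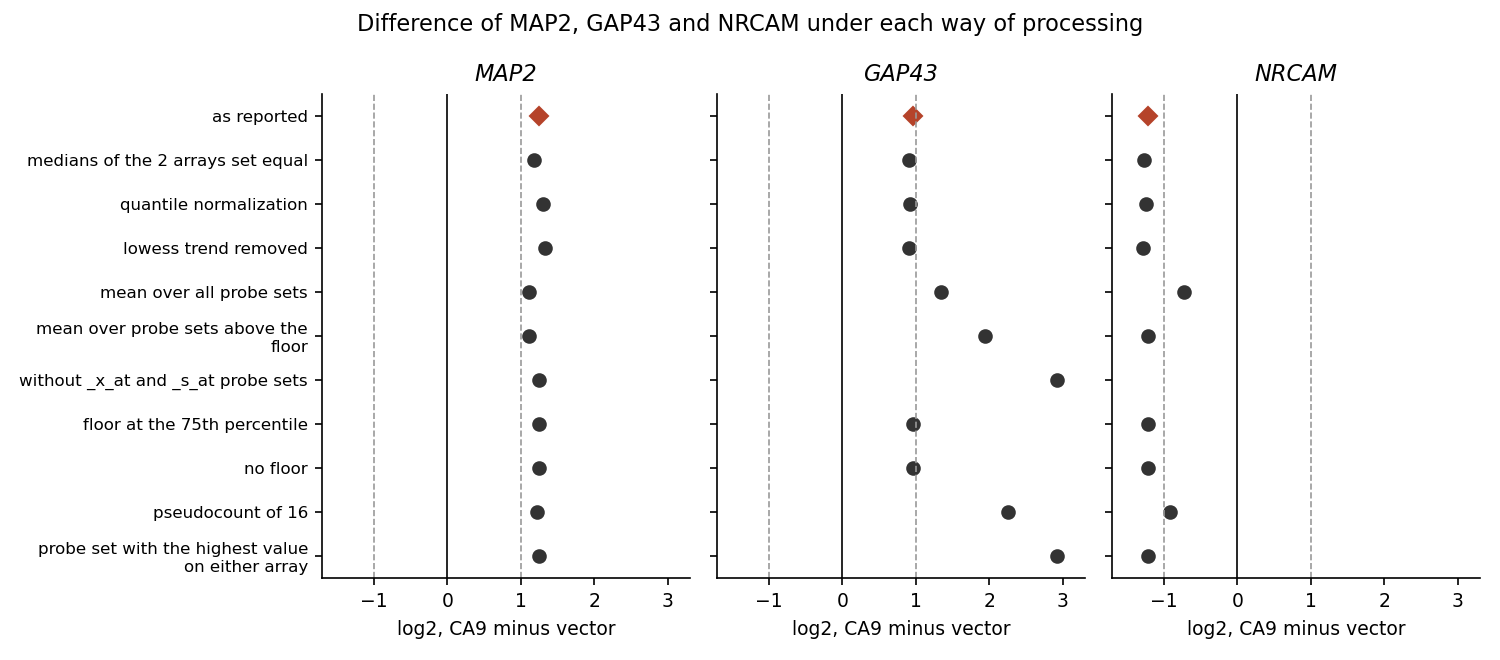
Log2 difference, CA9 minus vector, of MAP2, GAP43 and NRCAM as reported (red diamond) and under each other way of processing (black points); dashed lines are 2-fold. MAP2 stays between 1.12 and 1.32, GAP43 spreads between 0.90 and 2.93 with the choice of probe set, and NRCAM lies between -1.28 and -0.72.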

How the data were processed

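Per the labels' protocols, the arrays were hybridised with biotin-labelled cRNA from 5 µg of total RNA. The deposited table holds 1 intensity per probe set and array. RMA is named in the submitters' processing notes, and its version and settings are not given in the sources used here. RMA normally gives log2 values, whereas these intensities are linear, as read from their range, so log2 was taken without a pseudocount. Array medians were 41.8 for the CA9 line and 40.1 for the vector line. Gene names came from the platform annotation, updated through gene identifiers of RefSeq GRCh38.p14, whose order of genes gave the neighbours. No test was possible with 1 array per line, and the calls are by size. The 10 members and the lists were chosen with earlier results of these data known. In each list the genes past 2-fold were named, filled up to 3 with those farthest from 0, plus REST. Others are marked where named, apart from RCOR1, HDAC1 and HDAC2, which are named as partners of REST. Promoter sequences came from the RefSeq table, which held 7 of the 10 genes. The code for the 2-fold rule was run on simulated differences that lay clear of 2-fold, so that run does not bear on genes close to 2-fold. Python 3.11.15, numpy 2.4.6, pandas 2.3.3, statsmodels 0.14.6 and matplotlib 3.10.9 were used. In all 9 alternatives were planned and 1, the probe set brightest on either array, was chosen after seeing the data.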

Additional observations from a re-analysis of the deposited data

How the results depend on the processing

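MAP2 was called under all 10 alternatives, and no called gene among the 10 changed sign. Members at least 2-fold higher numbered 2 in place of 1 with averaged probe sets, with the average of those above the floor, without probe sets named _x_at or _s_at, with 16 added and with the probe set brightest on either array, through GAP43, at 1.34, 1.95, 2.93, 2.26 and 2.93. Members at least 2-fold lower numbered 0 in place of 1 with averaged probe sets (NRCAM -0.72), without _x_at and _s_at, with the floor at the 75th percentile and with 16 added. Averaging put NCAM1 at 0.11 and GRIA2 at 0.020, but neither was then measurable, since their averages lay below the floor on both arrays. Without _x_at and _s_at NCAM1 was -0.17, in a probe set below the floor on both arrays. Among all genes 90 higher and 96 lower became 44 and 48 with averaging and 42 and 51 with 16 added. With the higher floor 56 were higher, and with equal array medians 69 were higher and 123 lower. With equal array medians the higher genes made up 35.9% of the called genes, in place of 48.4%. Listed genes at least 2-fold higher numbered 1 in place of 2 with equal medians and with 16 added, both without GPRIN1, and those lower numbered 1 in place of 0, PTPRC, with equal medians, quantile normalization and the trend removed. The causes of these shifts beyond the choice of probe set and floor were not tested. Setting the medians equal moved the difference of all genes from a median of -0.03 to -0.09. No value could be had for TUBB3, CHGA or NRCAM without _x_at and _s_at. Of 738 repeated values 693 moved by less than the SD between probe sets or, for counts, by at most 1.5 times. Many of them could not have moved farther. The floor does not enter the difference of a gene, and equal medians shift all genes alike by less than that SD. Among the values treated as main results, mostly those of the 10 genes, 28 moved farther and 149 did not. Among the rest 17 moved farther and 544 did not. Signal near the floor limits NRCAM, CHGB and GAP43. No paired analysis was possible because there was 1 array per line.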
